A study of Mus musculus with 3 samples.

Results

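The 9 genes described here encode the MHC class II antigen presentation pathway and its costimulatory ligands in the mouse: H2-Aa, H2-Ab1, H2-Eb1, Cd74, H2-DMa, H2-DMb1, Ciita, Cd86 and Cd80. They were matched by symbol, and all 9 were found among the 31053 genes of a single-cell RNA sequencing (scRNA-seq) count matrix of mouse brain. The 3 samples were a control, an ischemic stroke (IS) and a hemorrhagic stroke (HS) library from mice labelled strain C56BL6, aged 10 weeks, each prepared from the pooled target tissue of several animals. IS was induced by middle cerebral artery occlusion with a suture that was then withdrawn, and HS by collagenase IV injected into the right striatum. No knockout allele or transgene is given for any of the 3 groups, and the day after stroke is not given for these libraries in the sources used here. The libraries are told apart in the matrix by a barcode suffix of 1, 2 or 3, which the labels do not pair with a condition, so the values describe the 3 libraries pooled or each suffix apart, and no stroke condition was compared.

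MHC class II molecules display peptides from the endosomal route to CD4 T cells. H2-Aa and H2-Ab1 encode the alpha and beta chains of I-A, and H2-Eb1 the beta chain of I-E, whose alpha chain gene is not expressed in C57BL/6 mice. Cd74, the invariant chain, escorts new class II dimers to the endosome and blocks their groove, and H2-DMa and H2-DMb1 form the H2-M dimer that loads peptide in its place. Ciita is the master transactivator of these genes and is recruited by factors bound to boxes that their promoters share. Cd86 and Cd80 are the B7 ligands that engage CD28 and CTLA-4 on T cells. In the healthy brain, class II is low on parenchymal microglia and is carried mainly by dendritic cells, B cells and some macrophages at the brain borders.

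H2-Ab1 (chromosome 17, 34257689 to 34269419, plus strand), H2-Aa (34282744 to 34287823, minus strand) and H2-Eb1 (34305867 to 34316674, plus strand) lie next to H2-DMa (34119541 to 34139101) and H2-DMb1 (34153072 to 34160230) in the MHC region of mm10. Ciita (10480059 to 10528418), Cd86 (36603869 to 36666081) and Cd80 (38455561 to 38496335) lie on chromosome 16. RefSeq promoters on GRCm38.p6 were matched for 5 of the 9 members, with 6 promoters in all because H2-DMa had 2. The CCAAT box, read as ATTGG on the strand printed, is one of the boxes of class II promoters. The 3 promoters shown are those that held ATTGG with its first base 70 to 40 bases before the start. They were picked by that motif and not by the levels of their genes, and H2-DMa, high in the same classes of cells, is not among them. Each sequence is the run of 100 bases before the RefSeq transcription start, with ATTGG and CCAAT in capitals. The longest run shared between any pair of the 3 is in capitals as well. The RefSeq starts are not always the ends of the gene spans given above. The H2-DMb1 window and the H2-DMa promoters lie inside the spans of those genes, so distances are to the RefSeq start only.
H2-Aa (chr17:34287824-34287923, minus strand): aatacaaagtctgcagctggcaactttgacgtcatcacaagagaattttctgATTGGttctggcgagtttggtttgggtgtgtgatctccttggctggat
H2-Eb1 (chr17:34305767-34305866, plus strand): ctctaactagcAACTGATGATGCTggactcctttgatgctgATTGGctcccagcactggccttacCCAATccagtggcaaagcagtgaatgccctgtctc
H2-DMb1 (chr17:34153091-34153190, plus strand): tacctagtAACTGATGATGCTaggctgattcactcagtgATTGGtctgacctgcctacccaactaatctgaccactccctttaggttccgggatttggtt
ATTGG began 48 bases before the start of H2-Aa, 59 bases before that of H2-Eb1 and 61 bases before that of H2-DMb1. Of 32851 RefSeq promoters of 300 bases, 37.41% held CCAAT or ATTGG on the strand read, and 4.061% held ATTGG within the same 70 to 40 bases, a window chosen after the members' sequences were seen. H2-Eb1 and H2-DMb1 shared a run of 13 bases, AACTGATGATGCT, 17 and 18 bases upstream of ATTGG. On either strand, that run was found in 3 of the 32851 promoters, and the third was that of Slc39a10. One of the H2-DMa promoters held ATTGG 198 bases before its start, and the Cd80 promoter held neither CCAAT nor ATTGG.

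Of 35968 barcodes, 31982 (88.9%) had at least 1000 unique molecular identifiers (UMIs, each an RNA molecule counted once) and at most 30% mitochondrial UMIs, with a median of 6147 UMIs. Classes were set by raw UMIs of marker genes, none of them a member, and are called "-like" because they rest on those markers alone. The gates placed 28611 barcodes in 1 of 19 classes, 2033 barcodes passed several gates and were left out of the classes, and 1338 passed none. No doublet caller was run, and 110 barcode sequences occurred in more than one library. Microglia-like barcodes had C1qa, C1qb and C1qc at 0.5% or more of their UMIs and passed no other gate. There were 11459 of them, 3407, 6033 and 2019 in the libraries of suffix 1, 2 and 3, and 363 barcodes lay within 20% of the C1q cut. Other macrophages also make C1q, but P2ry12 and Tmem119, markers of resident microglia, stood at 369 and 378 CPM (a gene's UMIs scaled to the total of the class) against 75.6 and 22.7 CPM in the 190 border-associated macrophage-like barcodes. Of the 8 resident microglia genes checked, only Csf1r went the other way, at 994 against 1090 CPM. Of the 190 border-associated macrophage-like barcodes, 159 came from the library of suffix 3. The antigen-presenting classes were small, with 44 dendritic cell-like, 32 monocyte-like and 29 B cell-like barcodes, and 190, 609 and 12 barcodes lay within 20% of their cuts. Each 95% interval, exact Poisson for a CPM and exact Clopper-Pearson for a share of barcodes, covers counting error only, and no test was run because barcodes of a library are not replicates.

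The class II chains were highest in dendritic cell-like barcodes, intermediate in monocyte-like and B cell-like barcodes, and far lower in microglia-like barcodes. H2-Aa stood at 9446 CPM in dendritic cell-like barcodes, 3163 in monocyte-like, 3181 in B cell-like and 49.6 in microglia-like barcodes. H2-Ab1 stood in the same classes at 11556, 3787, 3578 and 82.5 CPM. H2-Eb1 stood at 10096, 2955, 2805 and 35.9 CPM. Summed over the 3 chains, the level was 31098 CPM (95% interval 30499 to 31706) in dendritic cell-like, 9905 CPM (9539 to 10282) in monocyte-like, 9565 CPM (8938 to 10224) in B cell-like, 175 CPM (152 to 200.03) in border-associated macrophage-like and 168 CPM (165 to 171) in microglia-like barcodes. The intervals of the monocyte-like and B cell-like sums overlapped, as did those of the microglia-like and border-associated macrophage-like sums. When barcodes past several gates were kept, the dendritic cell-like sum fell to 18581 CPM. T cell-like barcodes, which should lack class II in the mouse, held 9.09 CPM (7.56 to 10.8), oligodendrocyte-like barcodes held 10.5 CPM (9.74 to 11.4), and these levels were taken as the background. NK cell-like barcodes, at 59.6 CPM (48.6 to 72.2), and neutrophil-like barcodes, at 45.6 CPM (33.6 to 60.4), lay above it. The low level outside the antigen-presenting classes was thus not the same in every class. In the NK cell-like class, the highest 1% of barcodes held 57.3% of the class II UMIs, and 234 of 264 barcodes held none. A single oligodendrocyte-like barcode held 338 of the 659 class II UMIs of its class, and without the library of suffix 2 the oligodendrocyte-like level was 3.25 CPM.

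By library, the order of classes did not hold everywhere. Dendritic cell-like barcodes held 30194, 26875 and 41520 CPM of the summed chains in the libraries of suffix 1, 2 and 3, and the lowest of these was still above every other class. B cell-like barcodes held 9258, 8493 and 10878 CPM. Monocyte-like barcodes ranged from 221 CPM in the library of suffix 3, with only 6 barcodes, to 20386 CPM in that of suffix 2. In 15 of the 32 monocyte-like barcodes the chains had 10 or more UMIs and in 14 they had none, so the monocyte-like gate held a high and a low set. Microglia-like barcodes held 88.9, 244 and 31.0 CPM, and without the library of suffix 2 their pooled level was 71.5 CPM.

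**Figure D1:**
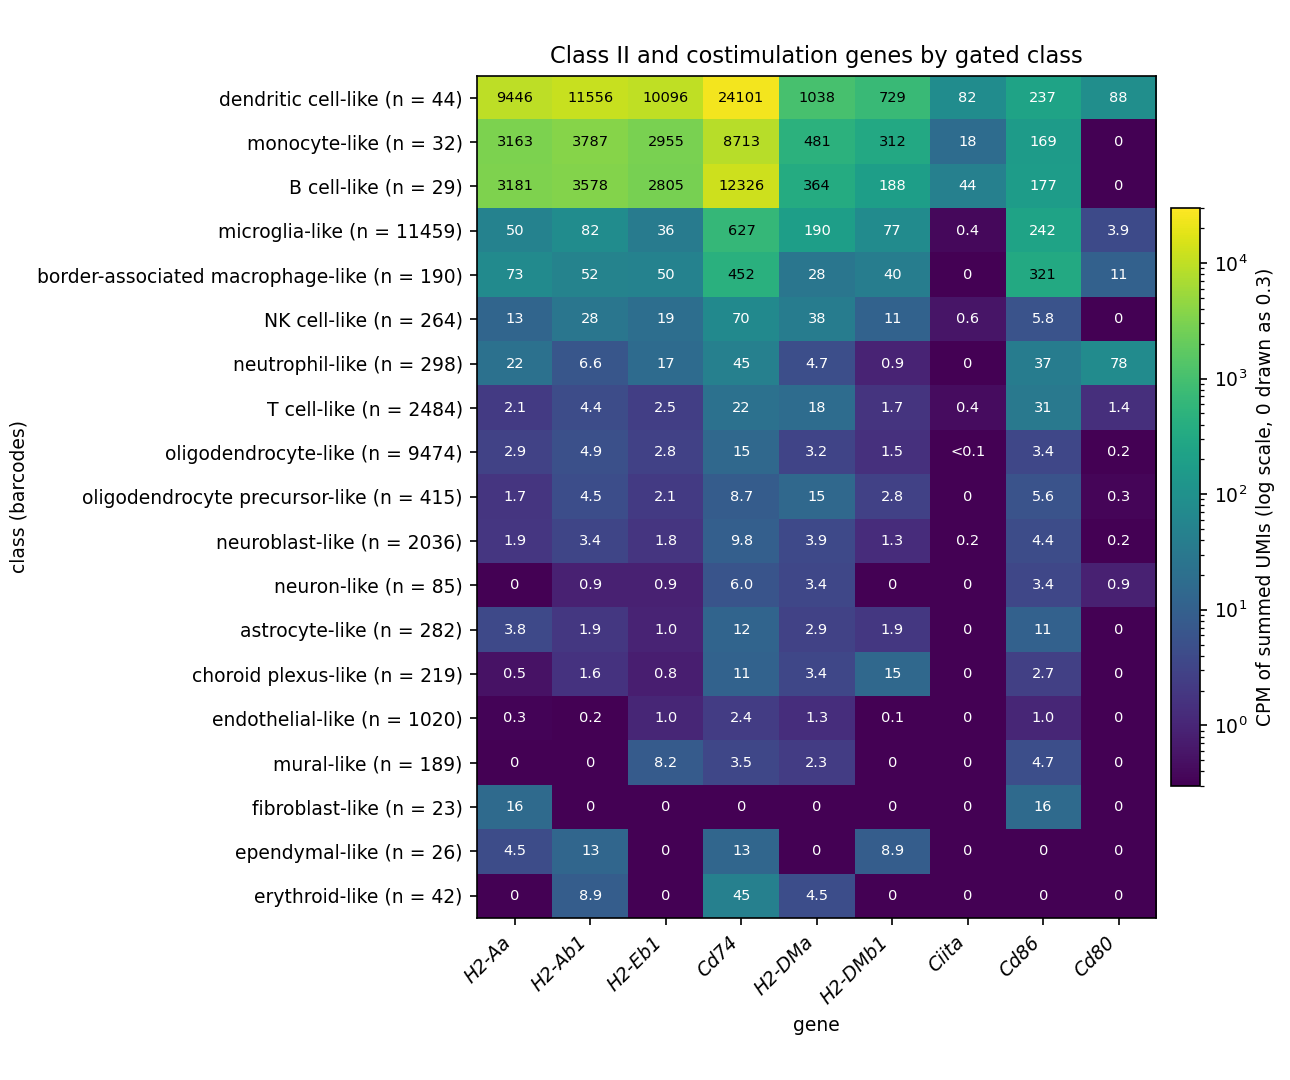
Level of each member (columns) in each marker-gated class (rows, with the number of barcodes), as CPM of summed UMIs on a log colour scale, with the value written in each cell. Class II chains and Cd74 were highest in the dendritic cell-like, monocyte-like and B cell-like rows. Pooled Cd86 was highest in the border-associated macrophage-like row (321 CPM), with the microglia-like (242 CPM) and dendritic cell-like (237 CPM) rows close to each other.

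Border-associated macrophage-like and microglia-like barcodes had close pooled sums, but most of the former came from the library of suffix 3. A class II UMI was found in 14 of the 190 border-associated macrophage-like barcodes (7.37%, 95% interval 4.09 to 12.1%), at a median depth of 6424 UMIs, and the highest 1% of barcodes held 76.9% of the class II UMIs. With gate shares doubled, the border-associated macrophage-like sum was 42.1 CPM, and without the library of suffix 3 it was 267 CPM. In the library of suffix 3, which held most of these barcodes, they stood at 162 CPM beside 31.0 CPM in microglia-like barcodes of the same library. A single barcode of that library held 141 of the 208 class II UMIs of the border-associated macrophage-like class, so this difference rested largely on it. In microglia-like barcodes, at a median depth of 7292 UMIs, a class II UMI was found in 23.7% (22.9 to 24.4%). Within the library of suffix 3 alone, the shares were 5.66% (2.62 to 10.5%) of border-associated macrophage-like and 5.45% (4.50 to 6.53%) of microglia-like barcodes, and these intervals overlapped.

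The mixture of chains also differed between classes. H2-Ab1 made up 49.1% (48.3 to 49.8%) of the class II UMIs of microglia-like barcodes, against 37.2% (36.2 to 38.1%) in dendritic cell-like and 37.4% (34.2 to 40.7%) in B cell-like barcodes. H2-Eb1 made up 21.4% (20.8 to 22.0%) in microglia-like and 32.5% (31.6 to 33.4%) in dendritic cell-like barcodes. H2-Aa was at 29.5% and 30.4% in the same classes. Among microglia-like barcodes the share of H2-Ab1 was 78.2% in those with 1 or 2 class II UMIs, 62.2% in those with 3 to 9 and 41.2% in those with 10 or more, so the pooled 49.1% joined unlike sets.

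Cd74, the invariant chain, lies on chromosome 18 (60803848 to 60812652, plus strand) and was, like the class II chains, highest in dendritic cell-like barcodes. It stood at 24101 CPM in dendritic cell-like, 12326 CPM in B cell-like and 8713 CPM in monocyte-like barcodes. Microglia-like barcodes stood at 627 CPM (622 to 632) and border-associated macrophage-like barcodes at 452 CPM (414 to 491). None of these pooled intervals overlapped, but the order did not hold in every library. Border-associated macrophage-like barcodes held 1297 and 939 CPM in suffix 1 and 2, above 415 and 772 CPM in microglia-like barcodes. Those classes had overlapping intervals in suffix 2. In suffix 3 they held 359 and 506 CPM. In suffix 2, monocyte-like barcodes held 16946 CPM, above 11149 CPM in B cell-like barcodes. A Cd74 UMI was found in 69.2% of microglia-like barcodes, against 7.81% of T cell-like (median 4742 UMIs) and 4.61% of oligodendrocyte-like barcodes (median 6124 UMIs). Per class II UMI there were 3.73 Cd74 UMIs in microglia-like barcodes, 2.59 in border-associated macrophage-like, 1.29 in B cell-like and 0.775 in dendritic cell-like barcodes. These are ratios of pooled sums and join unlike barcodes. Of the 63881 Cd74 UMIs of microglia-like barcodes, 27585 lay in barcodes with no class II UMI. The border-associated macrophage-like ratio rested on 208 class II UMIs, 141 of them in a single barcode. Cd74 in microglia-like barcodes was 415, 772 and 506 CPM in the libraries of suffix 1, 2 and 3. The library of suffix 3 had the lowest class II sum of microglia-like barcodes but not the lowest Cd74.

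The peptide-loading genes were higher in microglia-like than in border-associated macrophage-like barcodes. H2-DMa stood at 190 CPM (187 to 193) in microglia-like barcodes and 27.7 CPM (19.1 to 38.9) in border-associated macrophage-like barcodes. Within the library of suffix 3 the corresponding values were 204 and 22.0 CPM. H2-DMb1 stood at 76.5 CPM (74.8 to 78.2) and 40.3 CPM (29.7 to 53.4) in the same classes. An H2-DMa UMI was found in 67.4% of microglia-like and 11.6% of border-associated macrophage-like barcodes. Dendritic cell-like barcodes were higher for both, with 1038 CPM (931 to 1154) of H2-DMa and 729 CPM (639 to 827) of H2-DMb1.

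Low levels of these genes were also found outside the antigen-presenting classes. H2-DMa reached 17.8 CPM (15.6 to 20.2) in T cell-like barcodes, 37.6 CPM (29.0 to 47.9) in NK cell-like and 15.0 CPM (10.9 to 20.2) in oligodendrocyte precursor-like barcodes, against 3.21 CPM (2.78 to 3.69) in oligodendrocyte-like barcodes. Set per 1000 UMIs of C1qa, a microglial transcript, H2-DMa was 86.8 in T cell-like, 191 in NK cell-like and 90.3 in oligodendrocyte precursor-like barcodes. The ratio was 17.9 in microglia-like and 25.9 in oligodendrocyte-like barcodes, so it was not the same in every class. These ratios pooled the libraries, free RNA was not measured, and its part in these levels was not tested. H2-DMb1 stood at 14.8 CPM (11.2 to 19.3) in 219 choroid plexus-like barcodes, with a UMI in 20.5% of them at a median depth of 14137 UMIs, while their summed class II chains stood at 2.92 CPM. After thinning to 1000 UMIs, H2-DMb1 was found in 4.11% of choroid plexus-like, 0.158% of oligodendrocyte-like and 7.49% of microglia-like barcodes.

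Ciita, the transactivator, was sparse. It stood at 82.0 CPM (54.0 to 119) in dendritic cell-like barcodes, with a UMI in 15 of 44, and at 44.2 CPM (12.04 to 113) in B cell-like and 18.0 CPM (5.83 to 41.9) in monocyte-like barcodes. Microglia-like barcodes held 39 Ciita UMIs in all, or 0.383 CPM (0.272 to 0.524), against 0.444 CPM (0.163 to 0.966) in T cell-like barcodes, and the intervals overlapped. No Ciita UMI was found in 190 border-associated macrophage-like barcodes, which by the limit of 3 counts allows up to 1.58% of barcodes with a UMI and does not limit the share that expresses it.

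Cd86 did not follow the class II order. Border-associated macrophage-like barcodes had the highest level, 321 CPM (289 to 355), ahead of microglia-like barcodes at 242 CPM (239 to 245). Dendritic cell-like (237 CPM, 187 to 295), B cell-like (177 CPM, 101 to 287) and monocyte-like barcodes (169 CPM, 124 to 224) came next. The interval of border-associated macrophage-like barcodes lay above that of microglia-like barcodes, whereas those of microglia-like, dendritic cell-like, B cell-like and monocyte-like barcodes each overlapped that of the next. The intervals of the first pair did not overlap in the library of suffix 1, with 16 border-associated macrophage-like barcodes, but overlapped in that of suffix 2 and, with 321 CPM (288 to 358) against 295 CPM (286 to 305), in that of suffix 3, which held 159 of the 190 border-associated macrophage-like barcodes. A Cd86 UMI was found in 75.6% of microglia-like barcodes, 70.5% (63.5 to 76.9%) of border-associated macrophage-like barcodes and 1.91% of oligodendrocyte-like barcodes. After thinning to 1000 UMIs, the shares were 21.1% (15.5 to 27.5%) of border-associated macrophage-like and 22.7% (21.9 to 23.5%) of microglia-like barcodes. By share of barcodes, the border-associated macrophage-like class was thus not the higher. The microglia-like level was 231, 235 and 295 CPM in the libraries of suffix 1, 2 and 3, a narrow range beside that of the class II chains. The dendritic cell-like level was 239, 269 and 165 CPM, above the microglia-like level in suffix 1 and 2 and below it in suffix 3, with 6 dendritic cell-like barcodes. Microglia-like barcodes, 35.8% of those kept, held 86.7% of all Cd86 UMIs but 36.5% of the class II chain UMIs. Dendritic cell-like barcodes, 0.138% of those kept, held 21.9% of the class II chain UMIs and 0.275% of the Cd86 UMIs.

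A low level of Cd86 was found in T cell-like barcodes. It stood at 31.2 CPM (28.3 to 34.3), with a UMI in 14.1%, against 5.78 CPM (2.77 to 10.6) in NK cell-like and 3.43 CPM (2.99 to 3.92) in oligodendrocyte-like barcodes. The 1426 T cell-like barcodes with Cd8 and no Cd4 UMI held 40.9 CPM (36.6 to 45.5), and the 230 with Cd4 and no Cd8 UMI held 14.6 CPM (9.04 to 22.3). In the library of suffix 1 these values were 27.9 and 11.9 CPM, and in that of suffix 2 they were 48.9 and 17.2 CPM, so the Cd8 subset was the higher in both. The library of suffix 3 held only 9 and 4 such barcodes. Per 1000 C1qa UMIs, Cd86 was 202 in the Cd8 subset, 63.6 in the Cd4 subset, 22.8 in microglia-like and 27.7 in oligodendrocyte-like barcodes. When barcodes past several gates were kept, the T cell-like level rose to 44.6 CPM. The median C1q count of T cell-like barcodes was 2 UMIs, and the part of doublets with microglia in this level was not tested.

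Cd80 stood at 3.91 CPM (3.53 to 4.31) in microglia-like barcodes, and its highest classes in the pool were dendritic cell-like barcodes at 88.0 CPM (59.0 to 126) and neutrophil-like barcodes at 77.9 CPM (62.0 to 96.7). The intervals of those classes overlapped. A Cd80 UMI was found in 18.8% (14.5 to 23.7%) of 298 neutrophil-like barcodes at a median depth of 2931 UMIs, and in 0.116% of oligodendrocyte-like barcodes. By library, the neutrophil-like level was 85.2, 67.2 and 37.8 CPM for suffix 1, 2 and 3, with 221, 58 and 19 barcodes. The dendritic cell-like level was 55.8, 146 and 30.1 CPM, below the neutrophil-like level in the libraries of suffix 1 and 3, and without the library of suffix 2 it was 46.9 CPM. Without that of suffix 1 the neutrophil-like level was 54.9 CPM. When barcodes past several gates were kept it was 52.4 CPM. No Cd80 UMI was found in the 29 B cell-like barcodes, which by the same limit allows up to 10.3% of barcodes with a UMI, or in the 32 monocyte-like barcodes, which allows up to 9.38%.

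**Figure D2:**
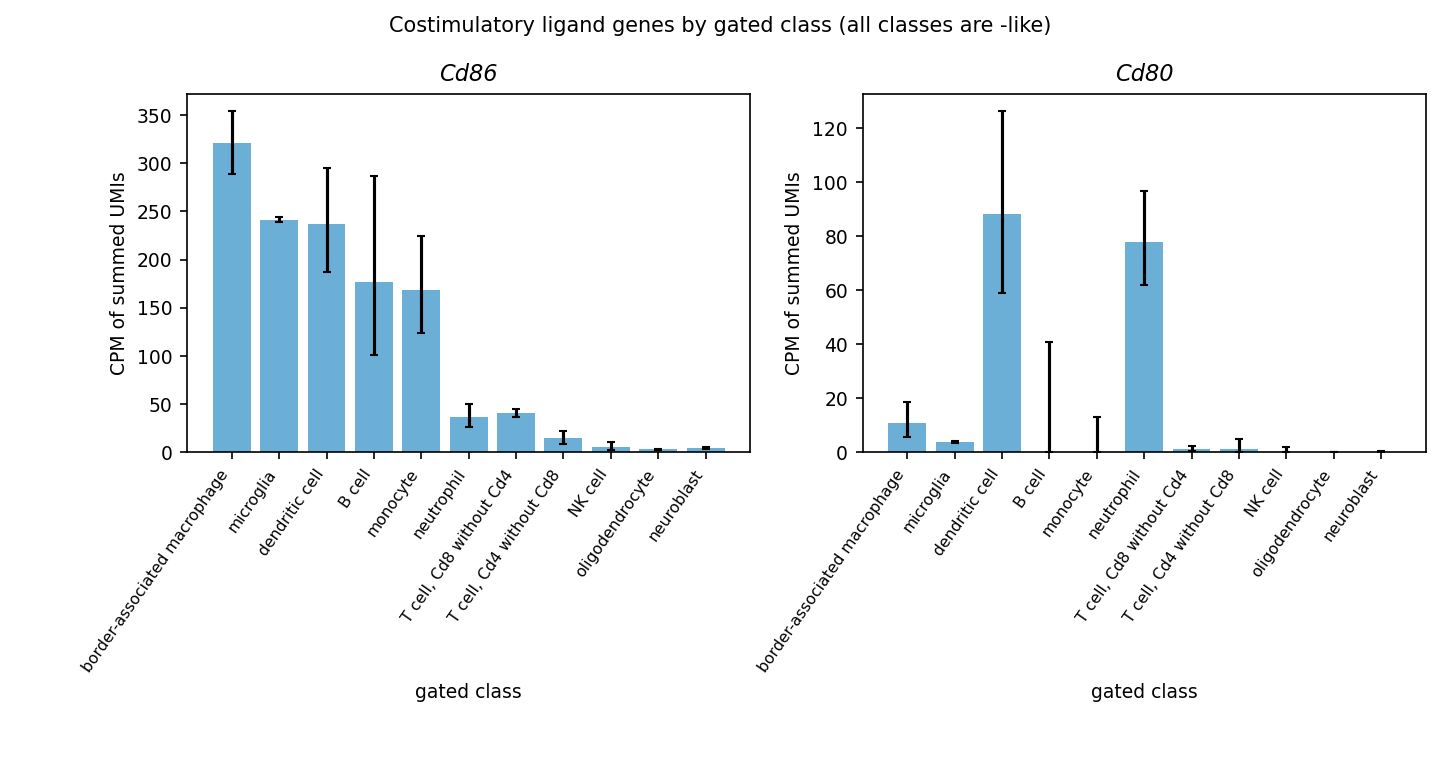
Cd86 (left) and Cd80 (right) in the gated classes, as CPM of summed UMIs (y axes from 0) with exact Poisson 95% intervals for counting error as bars. In the pool, Cd86 was highest in border-associated macrophage-like barcodes, and the intervals of microglia-like and dendritic cell-like barcodes overlapped. Cd80 was highest in dendritic cell-like and neutrophil-like barcodes.

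Within microglia-like barcodes, class II was held by few and Cd86 by many. The class II chains had no UMI in 8748 of 11459 barcodes, 1 or 2 UMIs in 1903, 3 or more in 808 (7.05%) and 10 or more in 307 (2.68%). The highest 1% of barcodes held 54.5% of the class II UMIs and the highest 5% held 82.0%. For Cd86, H2-DMa and Cd74 the highest 5% held 20.2%, 22.4% and 43.1%. Of the 307 barcodes with 10 or more class II UMIs, 245 came from the library of suffix 2, 60 from that of suffix 1 and 2 from that of suffix 3.

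**Figure D3:**
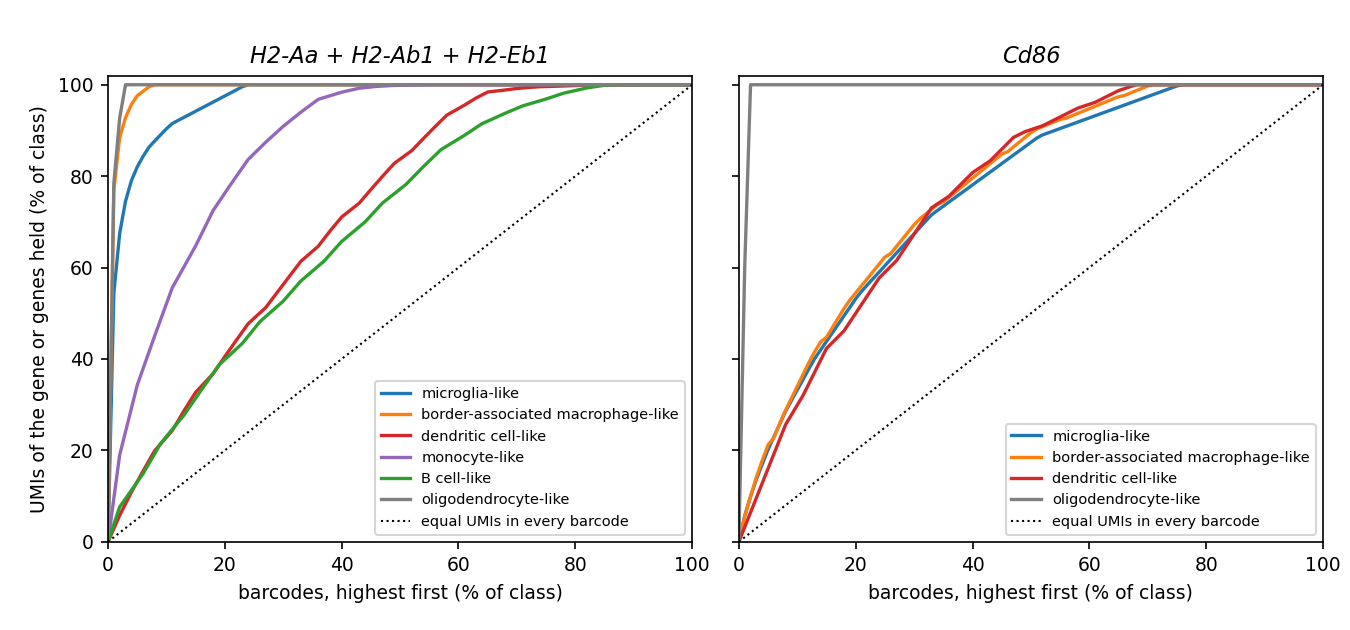
Percent of the UMIs of the summed class II chains (left) and of Cd86 (right) held by the highest barcodes of a class, with barcodes ordered from highest to lowest along the x axis and the dotted line for equal UMIs in every barcode. The curve of class II in microglia-like barcodes rose to 82.0% at 5% of barcodes, and that of Cd86 to 20.2%.

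Other members moved unequally with the class II chains across these barcodes. Cd74 stood at 413 CPM in microglia-like barcodes with no class II UMI, 465 with 1 or 2, 930 with 3 to 9 and 3696 with 10 or more. H2-DMb1 was 72.5, 70.1, 81.2 and 151 CPM in the same order. H2-DMa was 183, 189, 207 and 257 CPM, a smaller rise. Cd86 took the opposite order in CPM, with 252, 232, 212 and 191 CPM, and no median gene was set beside these bins. The library of suffix 3, with the highest Cd86 level of microglia-like barcodes, gave 1909 of the 8748 barcodes of the first bin. It gave 2 of the 307 of the last. Ciita stood at 0.195, 0, 0.396 and 4.51 CPM, on 13, 0, 3 and 23 UMIs. P2ry12 fell along the same bins from 462 to 82.2 CPM, Spp1, a secreted phosphoprotein of activated microglia, rose from 7357 to 29196 CPM, and Lyz2, a lysozyme of myeloid cells, from 2296 to 6719 CPM. The median depth rose as well, from 6356 to 15624 UMIs, so that deeper barcodes were more likely to reach 10 UMIs.

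The comparison of microglia by Cst7 asked how the members differed along microglial activation, since Cst7, an inhibitor of lysosomal cathepsins, is low in resting and high in activated microglia. It used every barcode of the C1q rule, 12800 in all. Of these, 186 also passed the border-associated macrophage gate and no gate besides, and 1341 passed some other gate in all. Cst7 had at least 2 UMIs in 5853 barcodes and none in 5759. The median depth was 11777 UMIs against 5547 UMIs. The libraries were not equal in this split. At least 2 Cst7 UMIs were found in 50.1% and 61.2% of the barcodes of suffix 1 and 2 but in 0.349%, or 9 barcodes, of suffix 3.

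Pooled over the libraries, H2-Aa was higher in Cst7-high barcodes, with 57.6 against 29.2 CPM, a ratio of 1.97 (1.84 to 2.12). H2-Ab1 was 97.0 against 41.9 CPM, a ratio of 2.31. Ciita was 0.571 against 0.228 CPM, a ratio of 2.51 (1.16 to 6.18) on 42 and 8 UMIs. H2-Eb1 (1.31), Cd74 (1.20), H2-DMb1 (0.961), H2-DMa (0.877) and Cd86 (0.789) stayed within 1.5-fold. Cd80 was lower, with 2.88 against 6.01 CPM, a ratio of 0.480 (0.394 to 0.583). At a fold of 1.5 on at least 50 UMIs, 3 of the 9 members were thus called higher, 1 lower and 5 neither. Ciita met that minimum exactly, with 42 of its 50 UMIs in Cst7-high barcodes, so its call carries no weight. Among all 13234 genes tested, 6.66% were called higher and 52.4% lower. The median log2 ratio of all genes was -0.62, while Apoe rose from 14956 to 76922 CPM and Spp1 from 989 to 15458 CPM. Relative to the median gene, 5 members were called higher and none lower, with 2597 genes higher and 2410 lower. Those 5 had ratios of 3.86 for Ciita on its 50 UMIs, 3.56 for H2-Ab1, 3.04 for H2-Aa, 2.01 for H2-Eb1 and 1.85 for Cd74. Cd86 turned from below 1 to 1.21 and Cd80 stood at 0.738 on that scale, and neither was called.

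With every barcode of the C1q rule used, the pooled class II ratios rested on the library of suffix 3. That library gave 2501 of the 5759 barcodes without Cst7 and had few class II UMIs, with 33.7 CPM of the summed chains in them. Without it, none of the members was called higher. Within the library of suffix 1, the summed chains stood at 115 against 77.7 CPM, a ratio of 1.49 (1.36 to 1.62). Within the library of suffix 2 they stood at 231 against 238 CPM, a ratio of 0.968 (0.926 to 1.01). H2-Aa had ratios of 1.45 and 1.01 in the libraries of suffix 1 and 2, and H2-Ab1 1.77 and 1.17. H2-Eb1 had ratios of 1.02 and 0.652. In the library of suffix 1, H2-Ab1 was called higher and Cd80 lower of 8 members tested, where 5.91% of 10906 genes were called higher and 30.4% lower. In that of suffix 2, none was called higher and H2-Eb1 and Cd80 were called lower of 8 tested, where 5.89% of 11869 genes were called higher and 42.8% lower. Ciita had too few UMIs for a call in either.

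Barcodes past another gate moved the class II ratios within libraries but little in the pool. Markers of T cells summed to 54.3 CPM in Cst7-high and 30.5 CPM in Cst7-zero barcodes, with all 6 markers higher, and those of dendritic cells to 42.5 and 15.2 CPM, with 4 of 8 higher. Monocyte markers summed to 41.3 and 34.2 CPM. Other lists were lower in Cst7-high barcodes, with 67.3 and 253 CPM for border-associated macrophages, 10.3 and 22.9 CPM for B cells and 353 and 1024 CPM for oligodendrocytes. With all barcodes past another gate left out, the T cell sums were 11.4 and 6.19 CPM, the dendritic cell sums 40.7 and 15.9 CPM and the B cell sums 10.2 and 25.4 CPM, and the border-associated macrophage sums turned to 69.4 and 48.995 CPM. The part of these cells in the class II ratios was not tested. The pooled ratio of the summed class II chains went from 1.92 to 1.89 (1.81 to 1.96), and 2 of 8 members were called higher and 1 lower, where 7.67% of 12391 genes were called higher and 48.5% lower. Within the library of suffix 1 the ratio became 2.85 (2.52 to 3.25), with 110 against 38.4 CPM, while the Cst7-zero barcodes with 10 or more class II UMIs went from 6 to 4, and within that of suffix 2 it became 0.863 (0.824 to 0.904). H2-Aa, H2-Ab1 and H2-Eb1 then had ratios of 3.74, 2.66 and 2.54 in suffix 1, with no share of all genes computed to set beside them. In suffix 2 they had 0.897, 1.05 and 0.576. The suffix 1 change rested on few barcodes. Class II UMIs in its Cst7-zero barcodes went from 620 to 274, and the percent of them in barcodes with 10 or more went from 65.2% to 26.6%. The libraries of suffix 1 and 2 then lay on opposite sides of 1 for the summed level.

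**Figure D4:**
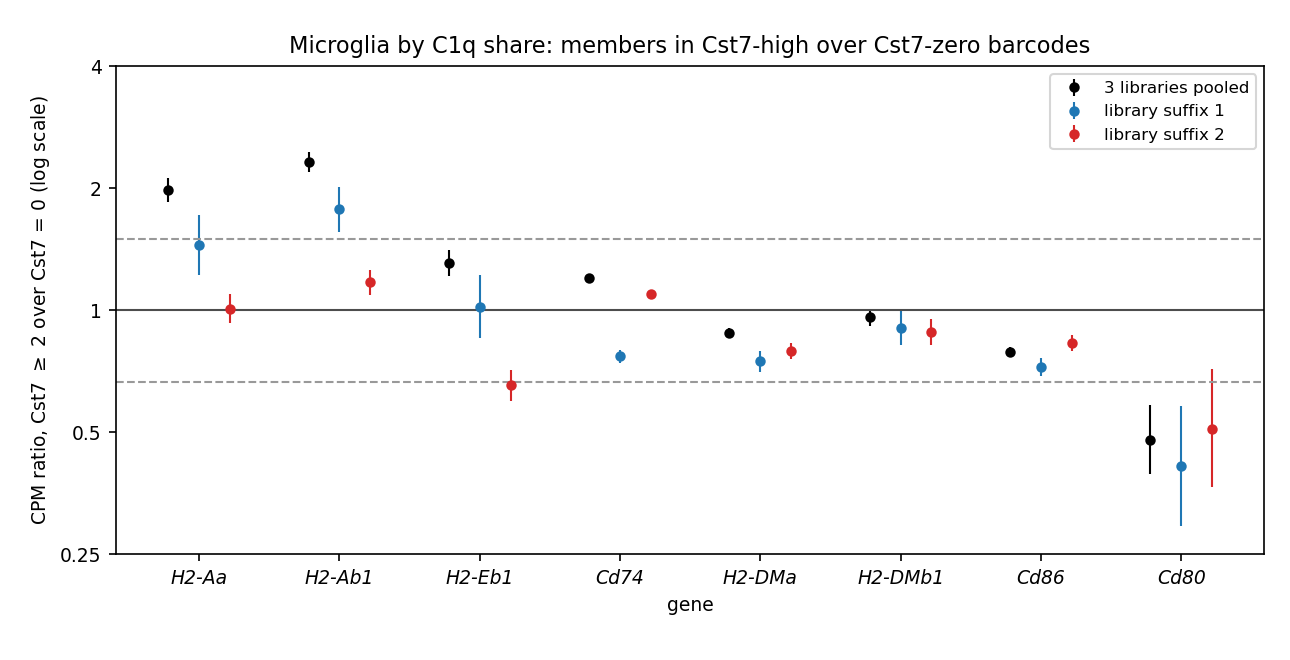
CPM ratio of each member (x axis) in C1q-rule barcodes with at least 2 Cst7 UMIs over those with none, on a log y axis, for the 3 libraries pooled and for the libraries of suffix 1 and 2, with 95% intervals for counting error. Dashed lines mark a fold of 1.5 either way, Ciita is not drawn because it had 50 UMIs in all, and the class II chains lay lower in the library of suffix 2 than in the pool while Cd80 lay below 1 in all 3 sets.

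The share of barcodes with a class II UMI behaved differently from the summed level. Each barcode with at least 2000 UMIs was thinned to 2000 UMIs, with the Cst7 groups kept as set before thinning. A class II UMI was then found in 10.8% (9.36 to 12.3%) of Cst7-high and 4.58% (3.47 to 5.92%) of Cst7-zero barcodes in the library of suffix 1. For suffix 2 the shares were 15.9% (14.8 to 17.1%) and 6.56% (5.39 to 7.90%). Without thinning, they were 32.2% and 11.7% in suffix 1 and 40.9% and 11.8% in suffix 2. With barcodes past another gate left out, the thinned shares were 10.8% and 4.41% in suffix 1 and 16.2% and 6.29% in suffix 2. Class II UMIs were thus found in a higher share of Cst7-high barcodes in both libraries, although the summed level of suffix 2 was not higher.

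The summed level was weighted by a few barcodes with many class II UMIs. For suffix 2, 23 of 1826 Cst7-zero barcodes (1.26%) had 10 or more class II UMIs and held 86.1% of that group's class II UMIs. Among Cst7-high barcodes, 224 of 3999 (5.60%) did, with 72.6% of the UMIs. The remaining barcodes stood at 68.7 CPM (66.3 to 71.1) with Cst7 and 34.1 CPM (30.5 to 38.0) without. For suffix 1 the remaining barcodes stood at 43.8 CPM (41.2 to 46.6) and 27.2 CPM (23.7 to 31.1). These sets were cut by the class II counts themselves and are a description. The cut of 10 UMIs took no account of depth. Cst7-high and Cst7-zero barcodes had medians of 11443 and 4682 UMIs in suffix 2, and 12665 and 4964 in suffix 1. The cut thus fell at a lower CPM in Cst7-high barcodes, which limits the comparison of shares and of remaining levels between the groups.

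The high sets of the 2 Cst7 groups did not carry the same genes. Over the 3 libraries, the 32 Cst7-zero barcodes with 10 or more class II UMIs held 23747 CPM of Lyz2, 147 CPM of Napsa, an aspartic protease also high in dendritic cell-like barcodes, and 41.7 CPM of Ccr2, a chemokine receptor of monocyte-derived cells. The 281 Cst7-high barcodes held 4556, 13.4 and 1.62 CPM of these. C1qa was 3890 CPM in the former and 11636 CPM in the latter. Cd74 was 9615 and 3370 CPM. P2ry12 was low in both, at 57.7 and 84.1 CPM, against 730 and 169 CPM in the remaining Cst7-zero and Cst7-high barcodes. Most of these sets came from the library of suffix 2. With 6 and 57 barcodes, the sets of suffix 1 held 7662 and 3370 CPM of Lyz2 and 242 and 83.0 CPM of P2ry12. Napsa was 24.2 and 21.5 CPM in them, against 179 and 11.3 CPM in the sets of suffix 2. With barcodes past another gate left out, Napsa in suffix 1 was 47.5 CPM in 4 Cst7-zero barcodes and 0 CPM in 54 Cst7-high barcodes. The Cst7-zero set of suffix 1 was too small to tell whether the Napsa difference held there.

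**Figure D5:**
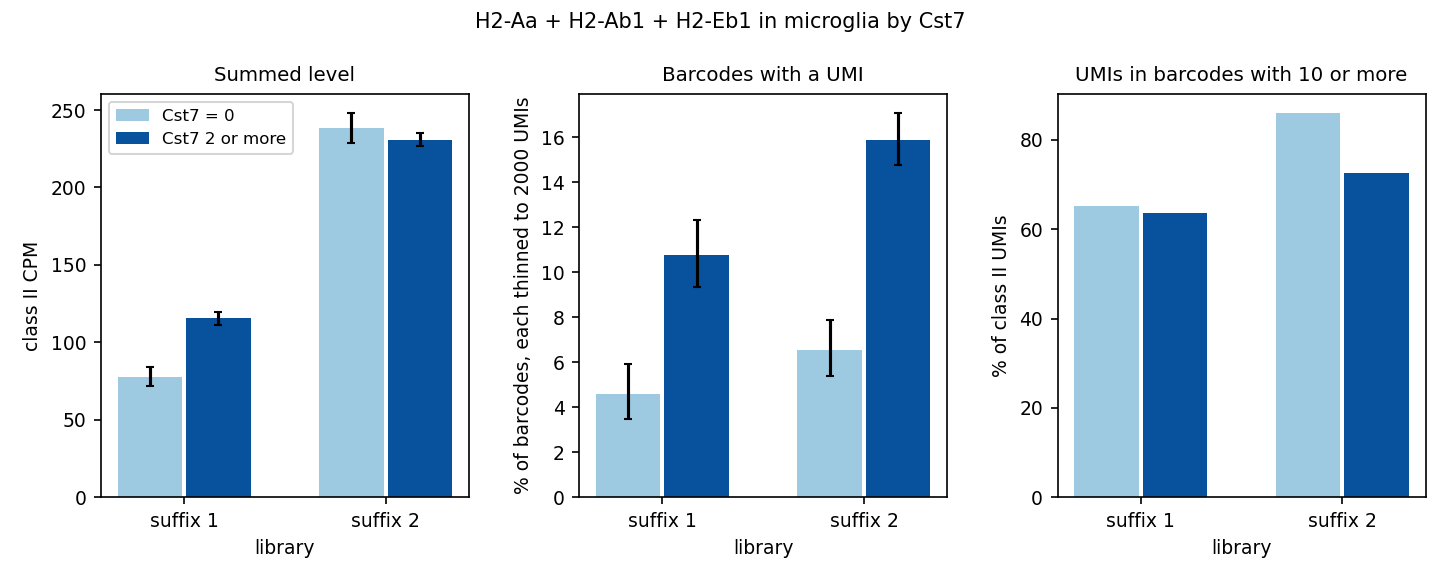
Summed H2-Aa, H2-Ab1 and H2-Eb1 in C1q-rule barcodes without Cst7 (light) and with at least 2 Cst7 UMIs (dark) in the libraries of suffix 1 and 2: CPM (left), percent of barcodes with a class II UMI after thinning to 2000 UMIs (middle) and percent of class II UMIs in barcodes with 10 or more (right). Bars carry 95% counting intervals in the first and middle panels, where suffix 2 had equal CPM (238 and 231) but unequal shares (6.56% and 15.9%).

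Cd86 and Cd80 had ratios below 1 in the libraries of suffix 1 and 2. Relative to the median gene, only Cd80 of the pair was lower in both. Cd86 was lower in Cst7-high barcodes within both libraries, at 201 against 278 CPM in suffix 1 (ratio 0.723, 0.687 to 0.760) and 219 against 264 CPM in suffix 2 (ratio 0.831, 0.795 to 0.867). Cd80 had ratios of 0.412 (0.293 to 0.582) and 0.509 (0.366 to 0.717). These ratios stand beside a median gene at 0.800 and 0.713 in these libraries, so Cd86 lay at 0.904 and 1.17 and Cd80 at 0.515 and 0.714 of the median gene, which puts Cd86 on opposite sides of it. H2-DMa had ratios of 0.748 and 0.793. By Cst7 count in microglia-like barcodes, Cd86 stood at 290, 272, 246, 245 and 209 CPM with 0, 1, 2 to 3, 4 to 9 and 10 or more Cst7 UMIs, and Cd80 at 6.33, 4.15, 4.31, 2.91 and 2.69 CPM. The class II chains had no such order, with 103, 176, 159, 131 and 214 CPM. All of these bins pooled the 3 libraries. For the class II chains the bin with 0 Cst7 UMIs joined 38.4, 273 and 31.8 CPM of suffix 1, 2 and 3, so the series does not show their course along Cst7.

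The other genes of the pathway were compared in the same pooled C1q-rule barcodes, where 6.66% of all genes were called higher, 52.4% were called lower and the median gene had a ratio of 0.650. Their ratios were not taken by library. The library of suffix 3 gave 2501 of the 5759 Cst7-zero barcodes and 9 of the 5853 Cst7-high barcodes. Of 3 other class II genes tested, none passed 1.5-fold: H2-Oa and H2-Ob, which restrain H2-M, had ratios of 1.11 and 1.10, and H2-DMb2, a second H2-M beta chain, 0.737. Of 5 lysosomal proteases, Ctsb (2.29), Ctsl (1.86) and Ctsd (1.77) were higher and Lgmn, an asparaginyl endopeptidase, was lower (0.561). Ctss, the cathepsin that trims Cd74 in antigen-presenting cells, was 5366 against 5071 CPM, a ratio of 1.06. Of 13 genes of class II transcription and turnover, 9 were lower, among them Rfx5 (0.496), a subunit of the factor that binds the X box, and March1 (0.377), a ubiquitin ligase that sends class II and Cd86 for degradation. Rfx5 and March1 lay below the median gene as well. Cd83, which opposes that ligase, had a ratio of 1.16.

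Of 9 costimulatory and coinhibitory ligands tested, Tnfsf9 (4-1BBL, ratio 2.79), Cd274 (PD-L1, 1.94) and Pdcd1lg2 (PD-L2, 3.96 on 58 and 7 UMIs) were higher. Icosl (0.409), Vsir (VISTA, 0.430), Cd276 (0.505) and Icam1 (0.513) were lower, a share of 4 in 9 beside the 52.4% of all genes. Cd40 stood at 4.23 against 5.61 CPM, within 1.5-fold. Among 8 genes of the T cell side tested, Lag3, a receptor for class II, was 489 against 238 CPM in these microglia (ratio 2.05) and Pdcd1 33.1 against 4.70 CPM (7.04). Ifng had a ratio of 1.53 that became 0.942 without barcodes past another gate. The 9 genes of the activated microglia list were all higher, from Ctsb (2.29) to Spp1 (15.6), and of 8 resident microglia genes 7 were lower and none higher, with P2ry12 at 0.226.

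Over the 13 classes with at least 50 barcodes, the genes with levels most like H2-Aa by Pearson's r of log2(CPM + 10) were Lyz2 (0.963), Cd68 (0.962), Unc93b1 (0.961), Fcgr2b (0.959) and Gm38843 (0.959). Those most like Cd86 were Ms4a6d (0.976), Abhd15 (0.973), Ccl9 (0.970), Tlr1 (0.966) and P2ry6 (0.965). These classes share their libraries, and the dendritic cell-like, monocyte-like and B cell-like classes were too small to enter, so the correlations describe the remaining classes only. Among those, H2-Aa stood at 73.0 CPM in border-associated macrophage-like and 49.6 CPM in microglia-like barcodes. It was at most 21.8 CPM in the others, near the 10 added before the log, which limits what its correlations show.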

How the data were processed

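Single-cell suspensions were captured in droplets and sequenced as 3 libraries. The authors deposited 1 matrix of whole-number UMI counts per gene and barcode. The submitters' processing notes name Cell Ranger 3.1.0, STAR, Seurat 3.1.1 and mm10. Reads were down-sampled across libraries as far as needed, which can remove molecules from deeper libraries. The matrix was not normalized per cell.

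The libraries of suffix 1, 2 and 3 kept 8969, 13769 and 9244 barcodes with 71489993, 104786530 and 67564548 UMIs. A gate was a minimum share of UMIs from a fixed marker list with at least 3 markers seen (2 for dendritic cells, the C1q share alone for microglia). The shares were set after marker distributions were seen, and Fscn1 was dropped because most C1q-positive barcodes had it. Border-associated macrophage gating took precedence over C1q, and T or NK cell gating over monocyte gating. CPM was computed from summed counts. A gene was called at a CPM ratio of 1.5 either way on at least 50 UMIs, without C1qa, C1qb, C1qc and Cst7. No test was run. Ratios had exact conditional intervals. A count of 0 allows up to 3 counts. Named genes were the 9 members, the 3 genes of each pathway list with the highest level or largest fold (others were named after their values were seen) and the 5 genes most like H2-Aa and Cd86 among those with 500 UMIs. One gene of the pathway lists and one motif are not reported here. The members and lists were chosen with earlier results of these data known. The ratio step was tested on Poisson counts simulated from summed profiles. That simulation held no differences between barcodes, so it does not cover genes whose UMIs lie in few barcodes. Python 3.11.15, NumPy 2.4.6, pandas 2.3.3, SciPy 1.17.1 and Matplotlib 3.10.9 were used.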

Additional observations from a re-analysis of the deposited data

Results flagged for a closer look

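The 1338 barcodes past no gate, which enter none of the comparisons, held the summed class II chains at 1666 CPM, above the 9.09 CPM of T cell-like barcodes. They were singled out because this is signal outside the classes compared. Their median depth was 1990 UMIs, and 88 of them, with 10 or more Cd74 UMIs, held 94.9% of their class II UMIs. They carried 19.8% of all class II chain UMIs kept. Summed, those 88 also held 51229 CPM of Igkc, an immunoglobulin light chain, and 15542 CPM of Lyz2, with 10 or more Igkc UMIs in 9 of them and 10 or more Lyz2 UMIs in 23. Their cell type was not set.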

How the results depend on the processing

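No paired analysis was possible because each condition has 1 library and the barcode suffixes are not paired with conditions. Leaving out each library in turn gave 71.5 to 203 CPM for class II in microglia-like, 28460 to 34118 CPM in dendritic cell-like barcodes and 233 to 250.2 CPM for Cd86 in microglia-like barcodes. It gave 0 (without suffix 3) to 3 members higher by Cst7. With upper limits of the mean plus 2 SD on UMIs and genes, class II in microglia-like barcodes was 136 CPM and Cd86 257 CPM. With barcodes past several gates kept they were 165 and 233 CPM, and the dendritic cell-like class II level 18581 CPM. Gate shares doubled gave 160.02 CPM for class II in microglia-like barcodes, and a minimum of 500 UMIs gave 30199 CPM in dendritic cell-like barcodes. A fold limit of 2 called 474 genes higher and 3542 lower by Cst7, against 881 and 6932. Alternatives chosen after seeing the data were ratios divided by the median ratio, which gave 5 members higher and 0 lower with 2597 genes higher and 2410 lower, and each library by itself. The library of suffix 1 called 1 member higher and 3318 genes lower, and that of suffix 2 called 0 members higher and 2 lower. H2-Eb1, called neither way in the pool, was among the 5 higher after division by the median ratio and was called lower in the library of suffix 2. The cause of each shift was not tested. The small dendritic, monocyte and B cell-like classes, and the 50 Ciita UMIs, limit what their values can show.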
